A study of Mus musculus with 14 samples.

Results

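The genes described are 9 chemokines (Cxcl1, Cxcl9, Cxcl10, Cxcl12, Cxcl13, Ccl2, Ccl5, Ccl6 and Ccl24) and Rarres2, which encodes the chemoattractant chemerin. They were taken by name as attractants of leukocytes and stem cells, with earlier results of these data known. Each was measured by 1 probe set annotated to that gene alone. Thus 10 of 10 were found among 19938 genes with a probe set of their own. All mice were male C57BL/6 animals, 24 weeks old, that had eaten a high-fat diet for 20 weeks. The HFM group (7 mice) was given human bone marrow mesenchymal stem cells (MSCs) from a single donor through the tail vein, and the HFS group (7 mice) was given the vehicle, which the labels call saline and the methods also call PBS. Livers were taken 24 h later and RNA from each mouse was hybridized to its own Affymetrix mouse gene array. There was no lean group and no group without an injection, so what the diet and the injection share between both groups cannot be read from these arrays. Values are log2 expression as deposited, in which 1 unit is a doubling, and every difference is HFM minus HFS.

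Chemokines are small secreted proteins that bind receptors on leukocytes and direct their movement along a gradient. They are sorted by the spacing of their first cysteines into CXC and CC families, and 5 of the genes here belong to the first and 4 to the second. In the liver they are released by hepatocytes, Kupffer cells, sinusoidal endothelial cells and stellate cells, and they help recruit circulating cells to the sinusoids. Cxcl12 and its receptor Cxcr4 are best known for holding stem and progenitor cells in the bone marrow. Chemerin is not a chemokine by structure, is made in large amounts by hepatocytes and adipocytes, and attracts macrophages, dendritic cells and NK cells through the receptor Cmklr1. On the genome, 5 of the 10 genes lie on chromosome 5, 3 on chromosome 11 and 2 on chromosome 6.

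Promoter sequences are shown for 3 inducible chemokines on chromosome 5, of which Cxcl9 differed between HFM and HFS livers by an unadjusted test and Cxcl10 and Cxcl1 did not pass it, as described below. Each is the 250 bases before the annotated start in RefSeq (GRCm38.p6), read in the direction of the gene, at chr5:92328080-92328329 (minus strand) for Cxcl9, chr5:92348890-92349139 (minus strand) for Cxcl10 and chr5:90890995-90891244 (plus strand) for Cxcl1. Capitals mark matches, on either strand, to GAAANNGAA, a paired motif that interferon regulatory factors can bind, and to GGGRNNYYCC, the kappa B motif of NF-kB. N is any base, R is A or G, and Y is C or T. Only exact matches were counted, so sequences close to a motif are not marked.

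Cxcl9: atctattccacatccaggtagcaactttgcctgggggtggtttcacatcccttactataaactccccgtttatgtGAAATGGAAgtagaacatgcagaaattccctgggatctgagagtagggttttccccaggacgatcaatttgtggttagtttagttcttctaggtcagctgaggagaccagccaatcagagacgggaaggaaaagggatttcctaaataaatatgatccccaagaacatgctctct

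Cxcl10: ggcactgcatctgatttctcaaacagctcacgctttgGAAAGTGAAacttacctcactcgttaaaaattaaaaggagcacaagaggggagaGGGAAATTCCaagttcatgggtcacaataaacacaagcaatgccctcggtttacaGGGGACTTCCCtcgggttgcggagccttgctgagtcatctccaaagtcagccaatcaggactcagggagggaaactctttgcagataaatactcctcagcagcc

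Cxcl1: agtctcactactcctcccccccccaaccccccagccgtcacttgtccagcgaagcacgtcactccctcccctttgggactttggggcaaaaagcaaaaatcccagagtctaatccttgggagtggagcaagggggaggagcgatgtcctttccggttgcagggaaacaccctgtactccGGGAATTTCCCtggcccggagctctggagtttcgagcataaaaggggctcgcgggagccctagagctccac

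The Cxcl9 window held 1 match to GAAANNGAA, from 175 to 167 bases before the start, and no exact kappa B match. The Cxcl10 window held 1 match to GAAANNGAA, from 213 to 205 bases before the start, and kappa B matches at 2 places, 1 of which holds 2 overlapping matches. The Cxcl1 window held 2 overlapping kappa B matches, the first from 71 to 62 bases before the start. Windows were found for 6 of the 10 genes, and those of Cxcl12, Cxcl13 and Ccl6 held neither motif. Over 32851 windows of the same length, 7.13% held GAAANNGAA and 7.25% the kappa B motif. These matches describe the letters only.

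To examine whether attractants of leukocytes and stem cells differed after MSC administration, each gene was compared between 7 HFM and 7 HFS mice. Cxcl9 and Rarres2 were higher in HFM livers, by 0.62 (standard error 0.17) and 0.33 (standard error 0.11), and Ccl24 was lower, with a difference of -0.23 (standard error 0.09). The other 7 genes had differences from -0.10 to 0.16, and their unadjusted p in limma ran from 0.155 to 0.777. At an unadjusted p under 0.05, 2 of 10 were thus higher and 1 was lower, where 3.57% of all 23410 tested probe sets were higher and 2.90% lower. The study's methods name a p under 0.01, a 1.2-fold change and a Bonferroni correction. Without the correction, 2 of 10 passed that filter (Cxcl9 and Rarres2), as did 0.696% of all probe sets. Rarres2 is among the genes that the study chose on these samples, so neither count of 2 of 10 is independent of that choice. The 10 genes were also named with earlier results of these data known. The filter left 1, Cxcl9, with the mouse number as a block, with an unmoderated test and without HFM2, HFM3, HFM4, HFS2, HFS3 or HFS4, and 3, with Ccl24 added, without HFM7. With Benjamini-Hochberg adjustment over all probe sets in limma, which is less strict than Bonferroni, 0% of them and 0 of the 10 genes were under 0.05, and the adjusted p of the 10 genes ran from 0.714 to 0.970. Cxcl9, Rarres2 and Ccl24 therefore differed only by the unadjusted test. The median difference of the 10 genes was 0.04, against 0.00 for all probe sets, with 7 above 0 and 3 below.

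**Figure D1:**
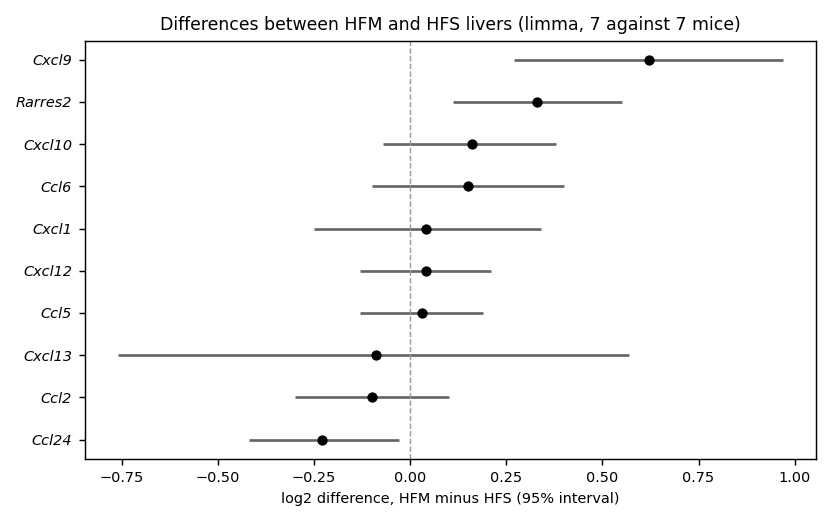
Difference between HFM and HFS livers for each gene (dots, log2 scale) with its 95% interval from limma (lines), in order of size. The interval lies above 0 for Cxcl9 (0.27 to 0.97) and Rarres2 (0.11 to 0.55), below 0 for Ccl24 (-0.42 to -0.03), and spans 0 for the other 7 genes.

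Cxcl9 encodes a chemokine, induced by interferon-gamma, that draws activated T cells and NK cells through the receptor Cxcr3. In HFM livers it was at 7.07, 6.86, 6.30, 6.71, 6.81, 6.45 and 6.11 in mice 1 to 7. In HFS livers it was at 5.94, 6.31, 5.69, 5.46, 5.88, 6.05 and 6.65. No HFM mouse fell below the HFS mean and 4 exceeded every HFS mouse, while HFS7 and HFS2 overlapped with the lower HFM mice. The means were 6.61 ± 0.34 (SD, n = 7 mice) and 6.00 ± 0.39 (n = 7), a 1.54-fold difference. Shuffling the 14 mice in all 3432 ways (exact permutation test, two-sided) gave p = 0.0105, where the smallest possible is 0.000583. The difference ran from 0.53 without HFS4 to 0.73 without HFS7, and it passed an unadjusted p of 0.05 with any 1 mouse left out.

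Cxcl10, a neighbour of Cxcl9 on chromosome 5 that signals through the same receptor and responds to type I as well as type II interferon, was at 4.86, 5.37, 5.30, 4.97, 5.23, 5.06 and 4.82 in HFM mice 1 to 7. In HFS mice it was at 5.15, 5.02, 4.88, 4.57, 4.91, 4.75 and 5.23. The groups overlapped over most of their range, with 3 of 7 HFM mice above the highest HFS mouse, HFM5 among them by a narrow margin, and the difference of 0.16 had a 95% interval from -0.07 to 0.38. The following comparison within mice, and the naming of Cxcl11 in it, were chosen after the values were seen, so they are a description with no test. The Cxcl9 value minus the Cxcl10 value in the same mouse was 1.53 ± 0.38 (SD, n = 7) in HFM and 1.07 ± 0.26 (n = 7) in HFS livers, larger in HFM by 0.46. Cxcl11, a further gene of the Cxcr3 ligand group, had a mean of 4.31 ± 0.13 in HFM and of 4.29 ± 0.10 in HFS mice. Both means lie within the range of the array medians, from 4.24 to 4.35. The Cxcl9 value minus the Cxcl11 value was larger in HFM by 0.59, close to the difference of Cxcl9 alone, 0.62. The receptor Cxcr3 was at 3.92 ± 0.21 and 3.98 ± 0.16 in the same order, with -0.06 (standard error 0.09) between them.

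Rarres2 was at 9.06, 9.08, 9.31, 9.27, 8.65, 9.02 and 8.97 in HFM mice 1 to 7. In HFS mice it was at 8.94, 8.67, 8.42, 8.44, 8.74, 8.89 and 8.94. Except for HFM5, which lay below the HFS mean, every HFM mouse was above every HFS mouse, though HFM7 exceeded the highest HFS mice by little. The means were 9.05 ± 0.22 (SD, n = 7 mice) and 8.72 ± 0.22 (n = 7), a 1.26-fold difference with p = 0.0163 in the exact permutation test. Without HFM5 the difference was 0.40, and without HFS3 it was 0.28. The study lists Rarres2 among the genes it chose on these samples, so its direction here is not independent of that choice. Of the receptors of chemerin, Cmklr1 had a mean of 4.97 ± 0.16 in HFM and of 4.91 ± 0.11 in HFS mice. Gpr1 differed by -0.07 (standard error 0.10) and Ccrl2, which binds chemerin and presents it to neighbouring cells, by 0.09 (standard error 0.08). For none of these 3 receptors did limma give an unadjusted p under 0.05.

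Ccl24, or eotaxin-2, attracts eosinophils through Ccr3. It was at 4.02, 3.74, 3.83, 3.74, 3.72, 3.97 and 4.20 in HFM mice 1 to 7 and at 3.90, 4.18, 3.89, 4.05, 4.27, 4.40 and 4.14 in HFS mice 1 to 7. Of the HFM mice, 4 lay below every HFS mouse, and HFM7 was above the HFS mean. The means were 3.89 ± 0.18 and 4.12 ± 0.19 (SD, n = 7 mice each), a 1.17-fold difference (exact permutation test, p = 0.0408). The mean of Ccl24 over all mice was below the median of every array, which ran from 4.24 to 4.35, and the file gives no detection calls. Its unadjusted p in limma was over 0.05 when HFM2, HFM4, HFM5, HFS5 or HFS6 was left out, the largest being 0.0620 without HFS6. The receptor Ccr3 had means of 2.89 ± 0.10 (HFM) and 2.82 ± 0.17 (HFS). The 4 eosinophil markers, Siglecf, Epx, Prg2 and Ccr3, had differences from 0.00 to 0.07, and all 4 were below the median of every array.

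**Figure D2:**
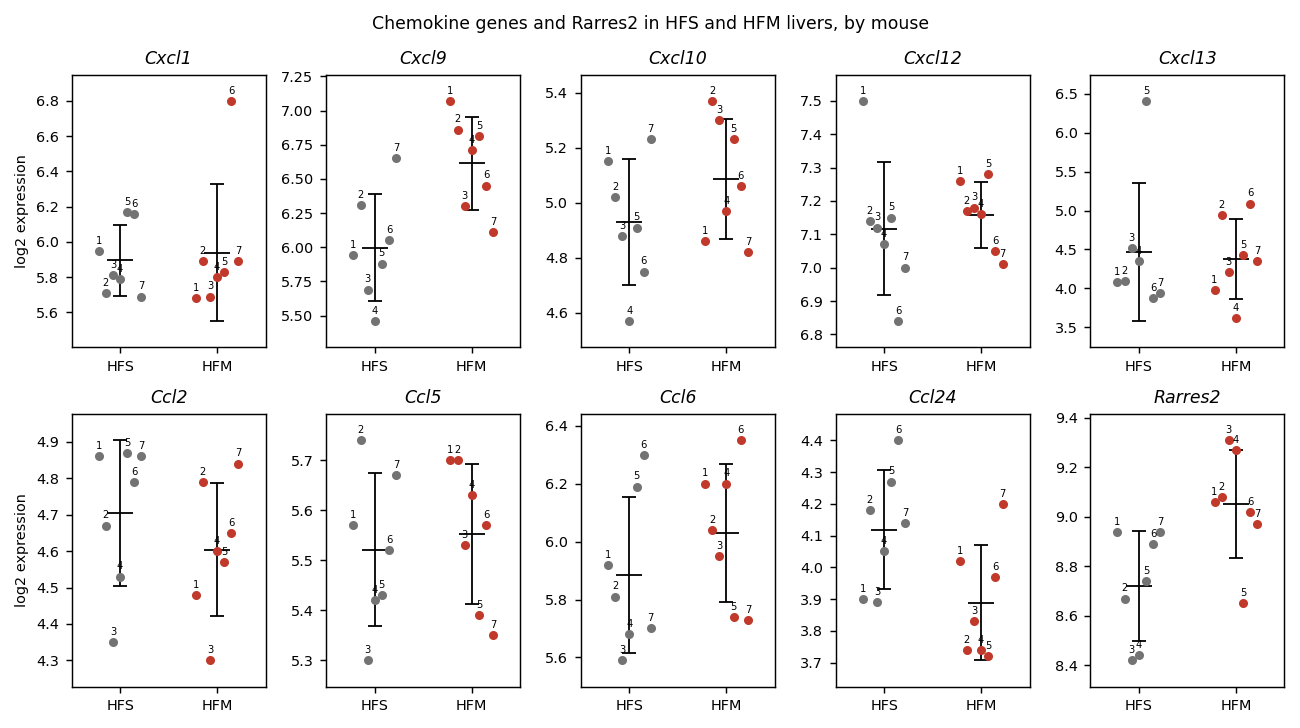
Log2 expression of the 10 genes in HFS (gray) and HFM (red) livers; each point is a mouse with its number above it, bars are the mean ± SD of 7 mice, and each panel has its own vertical axis, which does not start at 0. Cxcl9 was above the HFS mean in 7 of 7 HFM mice and Rarres2 in 6 of 7, while HFM6 stood alone for Cxcl1 (6.80) and HFS5 for Cxcl13 (6.41).

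Cxcl12, the chemokine of stem cell homing, was at 7.26, 7.17, 7.18, 7.16, 7.28, 7.05 and 7.01 in HFM mice 1 to 7. In HFS mice it was at 7.50, 7.14, 7.12, 7.07, 7.15, 6.84 and 7.00. HFS1 was the highest and HFS6 the lowest of all 14 mice, so that the HFM mice lay inside the HFS range. The difference of 0.04 (standard error 0.08) had a 95% interval from -0.13 to 0.21, and it was -0.003 after quantile normalization and -0.005 without HFS6. Of its receptors, Cxcr4 had means of 3.44 ± 0.16 (HFM) and 3.38 ± 0.17 (HFS; SD, n = 7 mice each). Ackr3, which binds Cxcl12 and removes it, was at 3.20 ± 0.08 and 3.31 ± 0.10, with an unadjusted p of 0.0795 in limma.

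Cxcl1 draws neutrophils through Cxcr2. In HFM mice 1 to 7 it was at 5.68, 5.89, 5.69, 5.80, 5.83, 6.80 and 5.89, and in HFS mice it ran from 5.69 to 6.17 with a median of 5.81. HFM6 was far above all others and 6 of 7 HFM mice lay below the HFS mean. The difference was 0.04 (standard error 0.14), and -0.10 without HFM6. Cxcr2 itself was higher in HFM livers by 0.23 (standard error 0.10, unadjusted p = 0.0283, adjusted p = 0.768 in limma), at 2.89 ± 0.24 against 2.66 ± 0.13, below the median of every array. Of the 9 neutrophil markers, 6 were below the median of every array. The 9 had a median difference of 0.10, and none passed an unadjusted p of 0.05. Their mean per mouse ran from 3.69 to 5.19 in HFM and from 3.68 to 4.38 in HFS mice, highest in HFM2 and not in HFM6, where it was 3.92.

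Cxcl13 directs B cells to follicles through Cxcr5. It ran from 3.62 to 5.09 in HFM mice with a median of 4.35, and from 3.87 to 6.41 in HFS mice with a median of 4.09. HFS5 was at 6.41 and the next HFS mouse, HFS3, at 4.52. It varied most among mice of all 10 genes, with an SD of 0.51 in HFM and 0.89 in HFS livers. Its difference was -0.09 (standard error 0.32), and 0.23 without HFS5. Cxcr5 differed by -0.01 (standard error 0.08). Of 6 B cell markers measured, 2 were lower at an unadjusted p under 0.05 in limma, where 2.90% of all probe sets were lower. These were Blk and Cd79a, with differences of -0.24 each and unadjusted p of 0.0181 and 0.0279 in limma. The other 4 had differences from 0.00 to 0.14 and did not pass. The median of the 6 was 0.00, and 5 of the 6 were below the median of every array. The study lists Blk among genes it chose on these samples.

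None of the CC chemokines other than Ccl24 passed the unadjusted test. Ccl2, which calls monocytes out of the bone marrow through Ccr2, had means of 4.60 ± 0.18 (HFM) and 4.70 ± 0.20 (HFS; SD, n = 7 mice each). It ran from 4.30 to 4.84 in HFM mice and from 4.35 to 4.87 in HFS mice, ranges that nearly coincide. Ccl5, a product of T cells, NK cells and macrophages that binds Ccr1 and Ccr3, was at 5.55 ± 0.14 and 5.52 ± 0.15, from 5.35 to 5.70 and from 5.30 to 5.74. Ccl6, a macrophage and myeloid chemokine that binds Ccr1, was at 6.03 ± 0.24 and 5.88 ± 0.27, from 5.73 to 6.35 and from 5.59 to 6.30. The 95% intervals of the differences were -0.30 to 0.10 for Ccl2, -0.13 to 0.19 for Ccl5 and -0.10 to 0.40 for Ccl6. Ccr2 differed by 0.04 (standard error 0.10) and Ccr1 by 0.03 (standard error 0.06).

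**Figure D3:**
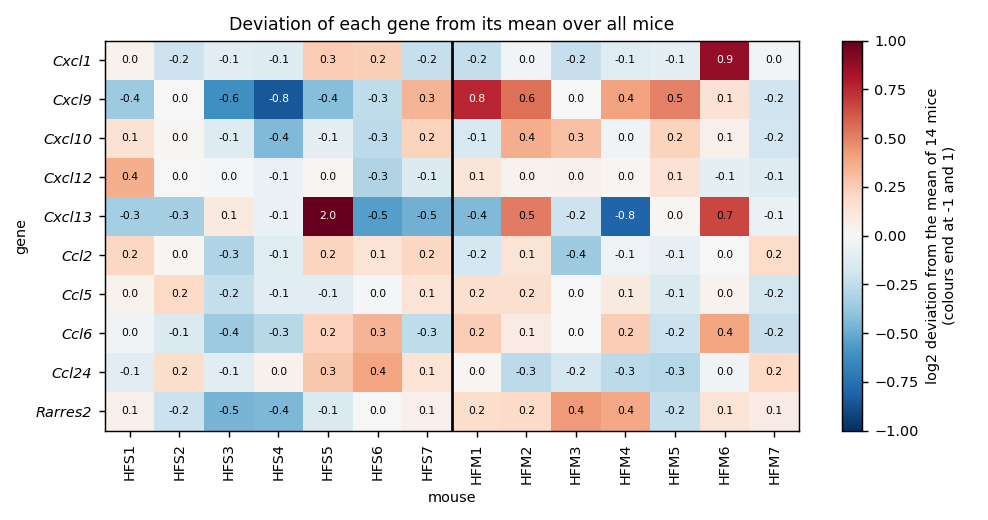
Deviation of each gene (rows) from its own mean over 14 mice on the log2 scale, by mouse (columns, HFS left of the line and HFM right of it). Red is above and blue below the mean, colours end at 1 and -1, and the printed values show that single mice stand out for Cxcl1 (HFM6) and Cxcl13 (HFS5).

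The rest of the chemokine system was examined next, with lists of 32 other ligands and 26 receptors. Of 27 other ligands measured, 0 were higher and 1, Ccl19, was lower at an unadjusted p under 0.05 in limma. Their median difference was 0.02, and they ranged from -0.21 to 0.15. Ccl19, which guides dendritic cells and naive T cells through Ccr7, had means of 5.58 ± 0.14 (HFM) and 5.80 ± 0.15 (HFS; SD, n = 7 mice each; unadjusted p = 0.0142, adjusted p = 0.761). Of 25 receptors measured, 1, Cxcr2, was higher and 1, Ccr10, a receptor of skin and mucosal lymphocytes, was lower by the same test, with a median of -0.01. Ccr10 was at 4.84 ± 0.13 against 5.04 ± 0.12 (unadjusted p = 0.0121, adjusted p = 0.737). These counts lie near the 3.57% and 2.90% found over all probe sets. The means of 19 of the 25 receptors and of 16 of the 27 other ligands were below the median of every array, as was 1 of the 10 genes described, Ccl24.

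Genes that share inducers with these chemokines were also counted. Of 18 genes of the interferon-gamma response measured, 4 were higher and 1 lower at an unadjusted p under 0.05 in limma, where 3.57% and 2.90% of all probe sets were, and the median difference was 0.10. Tap1, which carries peptides into the endoplasmic reticulum for loading on MHC class I, was higher by 0.29 (standard error 0.08). The others that were higher were Gbp7, a guanylate binding protein, by 0.25 (standard error 0.12), and the immunoproteasome subunits Psmb8 and Psmb9 by 0.22 (standard error 0.08) and 0.16 (standard error 0.07). The lower one was Ifng itself, with means of 4.08 ± 0.14 (HFM) and 4.25 ± 0.10 (HFS). It was among the 4 of these 18 genes whose mean over all mice was below the median of every array. Of 16 genes of the NF-kB response, 1 passed, Vcam1, an endothelial adhesion molecule, which was higher by 0.44 (standard error 0.12), and the list had a median of 0.01. The study lists Tap1 and Nlrc5 of the first list and Vcam1 and Birc3 of the second among genes it chose on these samples, so these counts are not independent of that choice.

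**Figure D4:**
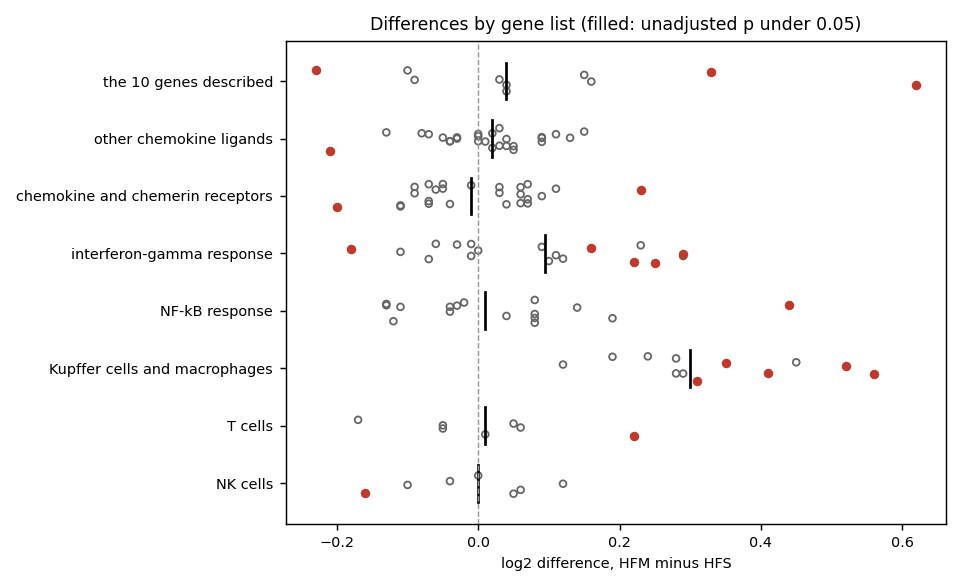
Difference of each gene (points, log2 scale, HFM minus HFS) by list, with the median of the list (vertical line); filled points had an unadjusted p under 0.05 in limma. The 10 genes described spread from -0.23 to 0.62, the other ligands from -0.21 to 0.15 and the receptors from -0.20 to 0.23, while the macrophage markers lie from 0.12 to 0.56.

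Whole liver RNA cannot separate more cells of a type from more RNA per cell. By PCR, the study found human DNA in HFM livers only. Whether RNA of the donor cells reached these mouse probe sets was not tested. The tissue was liver by its markers, as Alb, Apoa1, Ttr, Apob, Cps1, Hnf4a and Asgr1 had HFM means from 8.83 to 13.43 and none passed an unadjusted p of 0.05. Markers of Kupffer cells and macrophages had differences above 0 in 12 of 12 genes, of which 5 passed an unadjusted p of 0.05 in limma, where 3.57% of all probe sets were higher. Among these, Mpeg1 was higher by 0.52 (standard error 0.17), Cd5l by 0.56 (standard error 0.21) and C1qb by 0.41 (standard error 0.17). The study lists Cd5l, Cd68, Marco, C1qa and Adgre1 of these markers among genes it chose on these samples, so their direction is not independent of that choice. Their mean per mouse ran from 6.62 to 7.62 in HFM and from 6.33 to 7.37 in HFS mice. It was highest in HFM2 and HFM6 and in HFS5 and HFS6, which stood apart from the other mice of their groups, so no correlation with it is given. In HFM5, the HFM mouse with the lowest macrophage mean, Cxcl9 was at 6.81 and Rarres2 at 8.65. In HFM2, with the highest HFM macrophage mean, Cxcl9 was at 6.86 and Rarres2 at 9.08. In HFS7, with the lowest HFS macrophage mean, Cxcl9 was at 6.65 and Rarres2 at 8.94. In HFS5, with the highest HFS macrophage mean, Cxcl9 was at 5.88 and Rarres2 at 8.74. The part of macrophage content in the differences of Cxcl9 and Rarres2 was not tested.

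Cells that carry Cxcr3 were represented by low values. Of 7 T cell markers measured, 1 was higher at an unadjusted p under 0.05 in limma, Cd3g, by 0.22 (standard error 0.07), and 6 did not pass. Over all probe sets, 3.57% were higher and 2.90% lower by that test. Of the 7 differences, 4 were above 0 and 3 below, the lowest being -0.17 for Cd3d. Of 7 NK cell markers, 1 was lower, Prf1, with a difference of -0.16 (standard error 0.07), and the median was 0.00. Of the T cell markers 6 of 7, and of the NK cell markers 6 of 7, were below the median of every array. None of 5 monocyte markers and none of 6 dendritic cell markers passed an unadjusted p of 0.05. Of these, 3 of 5 and 4 of 6 were below the median of every array. Of 6 stellate cell markers, Colec11 and Pdgfrb were higher, by 0.22 (standard error 0.08) and 0.22 (standard error 0.09), and of 6 markers of sinusoidal endothelial cells 1, Stab1, by 0.18 (standard error 0.07). The stellate cell differences were above 0 in 5 of 6 markers, with Des at -0.10. The endothelial ones were above 0 in 4 of 6, the lowest being -0.08 for Clec4g. None of 4 cholangiocyte markers passed, and 2 of the 4 were below the median of every array.

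How the genes varied among mice of the same group was then described, with each value taken relative to its group mean. Over the 45 pairs of the 10 genes, Pearson's r ran from -0.64 to 0.74 with a median of 0.17, 31 pairs lying above 0 and 14 below. By 100000 permutations within groups, 5 pairs had p under 0.05 and none had an adjusted p under 0.05 over the 45 pairs. Cxcl9 and Ccl5 had the highest r, 0.74 (permutation p = 0.00425, adjusted p = 0.191), with Spearman's rho of 0.78 (permutation p = 0.00213, adjusted p = 0.0958) over 14 mice. Without HFS4 and HFS7, the mice farthest from the median of Cxcl9, r was 0.73. It was 0.65 without the mice farthest from the median of Ccl5. Cxcl12 and Ccl24 had the lowest r, -0.64 (permutation p = 0.0160, adjusted p = 0.241), with rho of -0.45 (permutation p = 0.133, adjusted p = 0.555), and r was -0.41 without HFS1 and HFS6. For Cxcl9 and Cxcl10, r was 0.48 (permutation p = 0.0995, adjusted p = 0.639) with rho of 0.46 (permutation p = 0.116, adjusted p = 0.555), and it was 0.14 without HFS4 and HFS7. No relation of Cxcl9 with Cxcl10 was thus established. Leaving out the mice with the most extreme Cxcl9 values also narrows its spread, so the lower r decides nothing further.

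**Figure D5:**
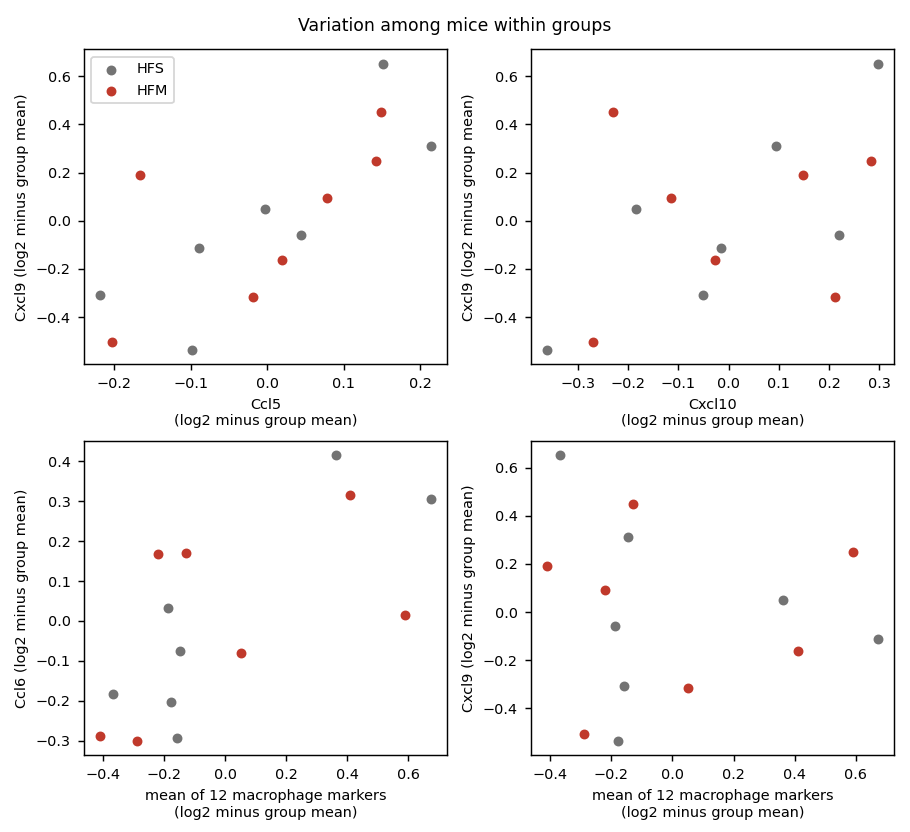
Values of Cxcl9 against Ccl5 and Cxcl10, and of Ccl6 and Cxcl9 against the mean of 12 macrophage markers, each on the log2 scale relative to the mean of the mouse's own group (HFS gray, HFM red, 14 mice). Cxcl9 and Ccl5 had the highest r of 45 pairs (0.74, permutation test, adjusted p = 0.191). In the lower panels, 4 mice with the most macrophage marker signal stand apart.

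The genes whose pattern over mice was most like each of the 10 were listed among 19937 others, by Pearson's r of the same group-centred values over 14 mice. These are the highest of many values and are a description only. Rarres2 was closest to Glul, the glutamine synthetase of the hepatocytes around the central vein (r = 0.95), Dglucy (0.95) and Wfdc2 (0.95). Glul differed between groups by 0.08 and Dglucy by 0.31. Cxcl10 was closest to Ifit1, an interferon-induced antiviral gene (r = 0.87), then Bloc1s6 and Mbd3l1 (0.84 each). Cxcl9 was closest to Ptpn18 (0.89), Ggct (0.86) and Bola3 (0.84), which differed between groups by -0.03, 0.01 and 0.00. Cxcl13 was closest to Jchain, a protein of plasma cells (0.87), Timd4, a receptor of resident macrophages (0.86), and Pmis2 (0.83), with HFS5 far from the other mice. Ccl6 was closest to Olfr1491 (0.87), Ctsb and Ifi30, which both encode lysosomal proteins (0.86 and 0.84). Ccl5 was closest to Ranbp10 (0.90), Abhd2 (0.87) and Lgals3, a lectin of macrophages (0.86). For Ccl24, Ccl2, Cxcl12 and Cxcl1 the closest genes were St6gal2 (0.89), Fam120c (0.93), Gbp11 (0.82) and Henmt1 (0.85).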

How the data were processed

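RNA from the livers of 14 mice was hybridized to Affymetrix mouse gene arrays, 1 for each animal. The authors used Expression Console, and the values they deposited are on the log2 scale after normalization between arrays. RMA is named in the labels and PLIER in the paper. The version of Expression Console, the genome build and scan dates are not stated in the labels or the paper. Array medians ran from 4.24 to 4.35, and the number of arrays limits precision.

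Of 35556 probe sets, 23410 had a gene symbol and were fitted with limma 3.58.1 in R 4.3.3 (lmFit and eBayes, HFM minus HFS, no covariate), with Benjamini-Hochberg adjustment over all of them. A gene was read from its brightest probe set with exactly 1 symbol. Intervals are 95% from limma, and the fit was tested on simulated data. Named were the 10 genes and their receptors, up to 6 genes of a pathway list with an unadjusted p under 0.05, up to 3 markers of a cell type and the 3 closest genes. The genes, lists and tests were chosen with earlier results of these data known.

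A further motif that was searched is not reported here. Alternatives covered the block by mouse number, normalization, dim probe sets, the variance prior, array weights, the choice of probe sets and each mouse left out.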

Additional observations from a re-analysis of the deposited data

Results flagged for a closer look

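Among 20 groups of 7 values, 2 held a mouse far from the others of its group, where chance gives about 1 in 20 groups. Cxcl1 was at 6.80 in HFM6 and at 5.89 in the next mouse, a gap of 0.81 of the range of the group. Cxcl13 was at 6.41 in HFS5 and at 4.52 in the next mouse, a gap of 0.74 of the range. The mean of the macrophage markers was 7.44 in HFM6 and 7.37 in HFS5, the second highest of the HFM mice and the highest of the HFS mice. The cause of either value was not tested.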

How the results depend on the processing

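Cxcl9 and Rarres2 kept their direction and an unadjusted p under 0.05 in limma under all 24 alternatives, with differences from 0.53 to 0.73 and from 0.28 to 0.40. Of 238 recomputed differences of single genes, 227 kept their direction and their side of that threshold. Ccl24 had an unadjusted p over 0.05 in 5, each with 1 mouse left out, its differences running from -0.28 to -0.18 over the mice left out. In 6 the sign changed, all for genes whose difference had not passed: -0.003 for Cxcl12 with quantile normalization, and, over mice left out in turn, -0.099 to 0.088 for Cxcl1, -0.005 to 0.105 for Cxcl12, -0.21 to 0.23 for Cxcl13 and -0.006 to 0.066 for Ccl5. The count past an unadjusted p of 0.05 ran from 2 to 3, and it was 2 with the brighter probe sets alone, which held 8 of the 10 genes, without Ccl24. The count past the filter of the methods, 2, was 1 with the replicate block and 1 with the unmoderated test, in both of which Rarres2 had an unadjusted p over 0.01, and ran from 1 to 3 over mice left out (1 without HFM2, HFM3, HFM4, HFS2, HFS3 or HFS4, and 3 without HFM7). No setting gave an adjusted p under 0.05 for any of the 10 genes. Deviations of same-numbered mice correlated at -0.20 to 0.14, and 1 of 7 pairs was over 0.1. Little was thus shared between them, but 7 pairs cannot settle whether the numbers pair the groups. The replicate block moved no other call. Dim probe sets, Ccl24 and most receptors among them, have little room between signal and background.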
